A study of Mus musculus with 20 samples.

Results

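The mdx mouse carries a nonsense mutation in Dmd, the gene for dystrophin, and is the standard mouse model of Duchenne muscular dystrophy. The series compared its limb muscle with its extraocular muscle (EOM), the set of small muscles that move the eye. The quantity described here is a single contrast, the difference of mdx effect between the muscles: leg mdx minus leg control, minus the same difference in EOM, on the log2 scale. All 20 arrays of the series enter it, 5 in each of 4 groups, and the groups follow from the sample titles. The leg controls came from gastrocnemius and soleus of wild-type mice. The leg mdx samples are labelled only as leg muscle, so the exact muscle is not given for them. EOM controls and EOM mdx samples are labelled as extraocular muscle, and all 4 groups were 8 weeks old. No label gives a strain, a sex, or whether an array holds 1 animal or a pool, so p-values here reflect how far these 20 arrays spread, and some of that spread may be technical.

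Dystrophin links the cytoskeleton of the muscle fibre to the extracellular matrix through a membrane complex, and fibres without it are damaged by contraction. In mdx limb muscle, cycles of fibre necrosis and regeneration bring in macrophages and activate fibroblasts and satellite cells, the muscle stem cells. Extraocular muscle is known to be spared in Duchenne muscular dystrophy and in the mdx mouse. The contrast asks, gene by gene, where the response of limb muscle to the loss of dystrophin differs from that of the spared muscle. A positive value means that mdx minus control was more positive in leg than in EOM, and a value of 1.00 is a 2-fold difference between the muscles in the mdx effect. Signals below are scaled signals in arbitrary units of the array, and levels were not compared between genes.

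The difference of mdx effect passed the test (limma, Benjamini-Hochberg adjusted p under 0.05) for 448 of 7204 tested probe sets, or 6.22%. It was more positive in leg for 355 of them (4.93%) and more negative in leg for 93 (1.29%). The negative count fell to 51 without EOM mdx 3, 56 without EOM control 4 or leg mdx 5, and 60 without leg mdx 3. With 1 probe set for each gene, 370 of 5468 genes passed (6.77%), 293 more positive in leg (5.36%) and 77 more negative (1.41%). The difference was at least 2-fold for 312 probe sets and at least 4-fold for 103, of which 95 were more positive in leg. Dmd itself was low on these arrays. Its signal ranged from 100.2 to 212 in leg controls, from 37.3 to 126 in leg mdx, from 204 to 325 in EOM controls and from 102 to 175 in EOM mdx, so every mdx array lay below every control array of EOM, while the leg groups overlapped. Its difference of mdx effect was 0.26 ± 0.42, with an adjusted p of 0.811, and it depends on the floor set on low signals. Utrn, which encodes utrophin, the dystrophin homologue of the neuromuscular junction, had mean signals of 191 ± 47.8 in leg control, 266 ± 67.4 in leg mdx, 258 ± 104 in EOM control and 213 ± 108 in EOM mdx (mean ± SD over 5 arrays, as for all group means below, while errors of contrasts are standard errors). Its contrast was 0.83 ± 0.59 (adjusted p = 0.508).

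**Figure D1:**
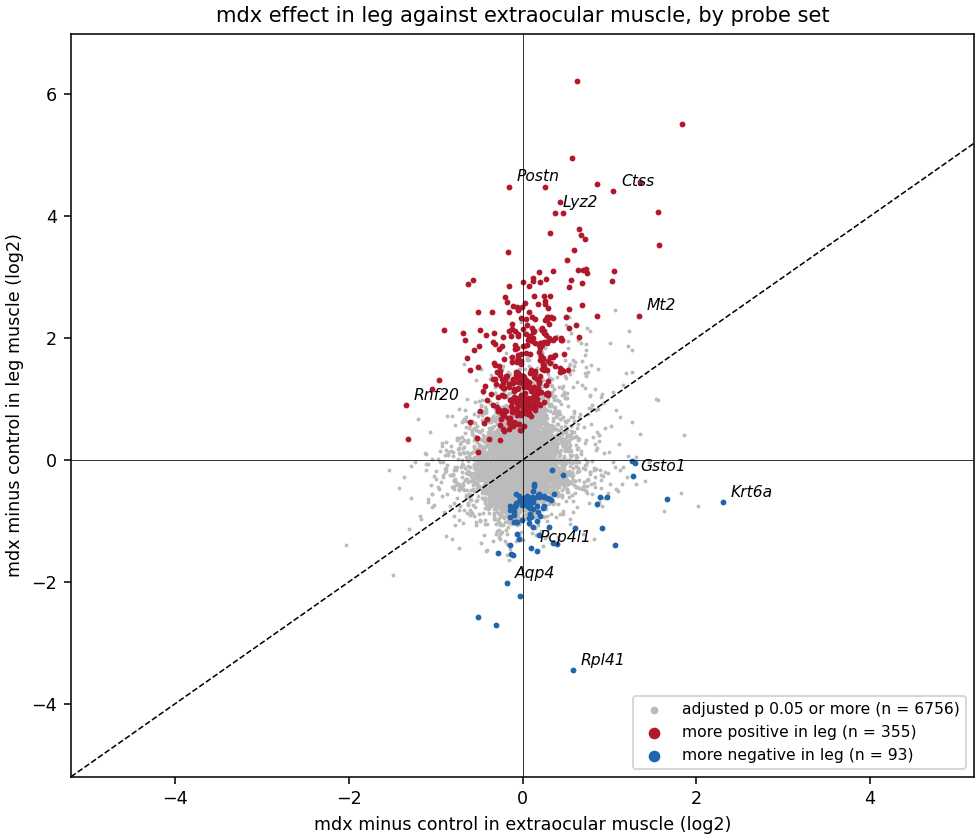
Each point is 1 of 7204 tested probe sets, placed by its mdx minus control difference in EOM (horizontal, log2) and in leg (vertical, log2); the dashed line marks equal effects. The 355 probe sets more positive in leg (red) and the 93 more negative (blue) lie above and below that line, most of them close to 0 on the EOM axis. Most of the other tested probe sets also lie close to 0 on that axis.

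Most of the probe sets that passed had an mdx effect of larger size in leg than in EOM. The EOM effect was the larger in size for 15 of the 448, against 2259 of all 7204 tested. Among the 355 more positive in leg, the median effect was 1.47 in leg against 0.04 in EOM. For 307 of them the EOM effect lay within 0.5 log2 units of 0, as it did for 6607 of all 7204. Leg mdx had the highest of the 4 group means for 310 (1790 of all 7204), and leg control the lowest for 311 (2014 of all 7204). The 5 leg mdx arrays and the 5 leg controls did not overlap for 320 of them, where 13.6% of all tested probe sets showed such a separation. The EOM groups did not overlap for 11, against 1.15% of all tested. EOM control lay above leg control for 327 (3761 of all 7204), by a median of 0.62, while EOM mdx lay below leg mdx by a median of 0.80. By these medians leg mdx stood above EOM and leg control below it. Leg control enters both the contrast and that comparison of controls, so the 2 are not independent. Among the 93 more negative in leg, leg mdx had the lowest mean for 74 (2256 of all 7204) and the EOM effect was within 0.5 for 80. Passing the test on the contrast itself favours such arrangements of the group means.

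Some arrays and one quality measure move with this contrast and were measured beside it. The array labelled leg control 4 read 45.2 for Myl2, a ventricular and slow-fibre myosin light chain, where the other 19 arrays read 4034 to 20216. It also read 94.9 for the limb-position gene Hoxd8, against 737 to 1416 in the other leg controls, and 8892 for the salivary gene Bpifa2, against 78.1 to 828. The 10 EOM arrays read 56.1 to 218 for Hoxd8 and 3030 to 4634 for Bpifa2. Tbx15, a limb and head position factor, read 2629 on that array, 447 to 1112 in leg mdx, 2726 to 4644 in EOM controls and 1978 to 3469 in EOM mdx. The values of these genes go against the label of that array, which is called leg control 4 only after its label. Its Myl2 and Bpifa2 signals also lay outside the range of the EOM arrays. Other genes on it read on the leg side: Chrna1 at 319 (EOM at least 1339), Peg3 at 413 (EOM at least 1962), Ech1 at 4960 (EOM at least 9638) and Ighm at 1653 (EOM at most 797). What tissue that array holds was not tested. Leg control 1 correlated least with the arrays of its group (mean r = 0.892) and had low signals of many matrix genes. Without both arrays 362 probe sets passed, 317 of them also among the 448, and those of the 448 that were tested kept their sign. The log2 ratio of 3′ to 5′ beta-actin control probe sets, a measure of RNA and labelling integrity, was 0.503 ± 0.366 in leg control, -1.86 ± 1.25 in leg mdx, 0.0842 ± 0.204 in EOM control and 0.167 ± 0.355 in EOM mdx (SD, n = 5). Its difference of mdx effect was -2.45 (exact permutation test over 63504 relabellings within muscles, two-sided, p = 0.00435, adjusted over 2 ratios p = 0.00869). Without leg control 1 and 4 it was -2.32, and the exact permutation p adjusted over the 2 ratios was 0.0605. The same contrast for Gapdh was -1.10 (exact permutation p = 0.107). The part of RNA quality in the results was not tested. Controls and mdx samples also carry different description texts in both muscles, so a change of protocol or time that acted on leg and EOM differently cannot be told apart from the difference of mdx effect.

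Most of the macrophage genes tested showed the contrast. Of 15 tested macrophage markers 12 were more positive in leg and 0 more negative, with a median contrast of 2.23 against -0.01 over all 5468 genes. The median marker was 2.32 higher in leg mdx than in leg control, and 0.37 higher in EOM mdx than in EOM control. The summed signal of the markers was 3696 to 4857 in leg control and 26322 to 35504 in leg mdx, while it was 5408 to 6925 in EOM control and 5729 to 10796 in EOM mdx. In whole-muscle RNA, more cells of a type and more RNA per cell cannot be told apart. Lyz2, the lysozyme of macrophages and granulocytes, read 242, 803, 835, 685 and 432 in the leg controls and 7941, 8960, 9762, 9275 and 9557 in leg mdx. For EOM the Lyz2 signals were 2179, 1377, 1301, 1791 and 1531 in controls and 2788, 2039, 1141, 1959 and 3034 in mdx. The leg groups were far apart and the EOM groups overlapped, which gave a contrast of 3.69 ± 0.39 (adjusted p = 6.31e-06). Laptm5, a lysosomal membrane protein of blood cells, had a contrast of 3.02 ± 0.34, while its other probe set gave -0.04 (adjusted p = 0.976), and Tyrobp, the signalling adaptor of myeloid receptors, one of 3.13 ± 0.49. Cd68, a lysosomal glycoprotein of macrophages, read 574, 421, 528, 509 and 410.1 in leg control, 1573, 1926, 2709, 2470 and 1770 in leg mdx, 451, 438, 479, 469 and 439 in EOM control and 585, 559, 492, 500.4 and 575 in EOM mdx. The EOM groups were narrowly separated, and all of their arrays lay far below leg mdx (contrast 1.83 ± 0.20, adjusted p = 7.38e-06). Mpeg1, the pore-forming protein of phagocytes, had a contrast of 2.32 ± 0.27. The 3 markers that did not pass were Adgre1, Irf8 and Cybb, named after their values were seen, with contrasts of 2.29, 1.06 and 0.27.

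Markers of other blood cells did not pass. This held for 0 of 7 lymphocyte markers and 0 of 8 granulocyte and mast cell markers (limma; 0 and 2 at an unadjusted p under 0.05), with median contrasts of -0.05 and 0.03. Over all 5468 genes, 622 more positive and 441 more negative contrasts had an unadjusted p under 0.05. The brightest of each, the immunoglobulin heavy chain gene Ighm and the mast cell tryptase Tpsb2, had contrasts of 0.19 ± 0.30 and -0.45 ± 0.28. The summed lymphocyte signal was 3437 to 4742 in leg control and 3533 to 4587 in leg mdx. Fc receptors, which bind the constant part of antibodies, passed for both members tested. Fcgr1 had a contrast of 1.29 ± 0.30, and Fcgr2b one of 2.48 ± 0.46, where low signals in leg control make the difference at least that large. Of 8 leukocyte integrins and adhesion genes 2 passed, Itgax (1.16 ± 0.25), the CD11c chain of macrophages and dendritic cells, and Selplg (0.96 ± 0.21), the selectin ligand. Cyba, the membrane subunit of the phagocyte oxidase, had a contrast of 1.88 ± 0.25, and it was 1 of 3 tested genes of the oxidase to pass.

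The transcription factor PU.1 is a master regulator of macrophage genes, and its own gene, Spi1, was among the markers that passed, with a contrast of 1.40. With the results above known, the 250 bases before each gene's start were searched on both strands for the 7 letters GAGGAAG, the core of PU.1 sites, in RefSeq promoters of the GRCm38.p6 build. Of 306 genes more positive in leg, 238 had a promoter in the table and 40 of these held the letters (16.8%). The share was 9.86% of 71 genes more negative in leg, 13.2% of 4403 tested genes and 12.0% of all 27025 promoters. Among 26 genes with a promoter that belonged to the blood-cell lists and were more positive in leg, 7 held them (26.9%). The other genes of those lists were not counted, so this share does not separate genes that passed from the rest of their lists. A match is a description of the letters and not a bound site. The windows of 3 of these genes are printed 5′ to 3′ on the strand of the gene, with each match in capitals, to show where it lies. Chosen were the genes with a match and the smallest adjusted p, apart from genes of a chromosome left out of this choice. They are C1qc at chr4:136892915-136893164 on the minus strand, Laptm5 at chr4:130913066-130913315 on the plus strand, and Mrc1, the mannose receptor of macrophages, at chr2:14229164-14229413 on the plus strand. Here the letters appear as their reverse complement in each window.
C1qc: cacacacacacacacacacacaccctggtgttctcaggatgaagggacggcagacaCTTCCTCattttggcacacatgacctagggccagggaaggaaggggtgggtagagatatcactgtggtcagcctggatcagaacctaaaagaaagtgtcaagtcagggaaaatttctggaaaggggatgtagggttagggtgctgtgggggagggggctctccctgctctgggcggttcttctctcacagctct
Laptm5: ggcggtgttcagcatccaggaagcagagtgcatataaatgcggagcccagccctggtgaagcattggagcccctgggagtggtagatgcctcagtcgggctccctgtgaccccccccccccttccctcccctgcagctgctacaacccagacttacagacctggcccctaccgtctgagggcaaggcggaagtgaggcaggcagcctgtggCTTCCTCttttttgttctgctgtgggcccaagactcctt
Mrc1: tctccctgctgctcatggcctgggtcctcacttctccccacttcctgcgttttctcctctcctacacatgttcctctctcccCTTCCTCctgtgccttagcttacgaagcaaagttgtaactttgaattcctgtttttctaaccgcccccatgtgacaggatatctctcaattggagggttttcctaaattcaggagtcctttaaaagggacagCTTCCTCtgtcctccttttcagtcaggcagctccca
The match began 194 bases before the start of C1qc and 39 bases before that of Laptm5, and Mrc1 had a pair of matches, 168 and 36 bases before its start.

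Signalling and movement genes of blood cells followed the macrophage markers. In the list of haematopoietic signalling and actin regulators 6 of 11 were more positive in leg and 0 more negative (median 1.24). Lcp1, the actin-bundling plastin of leukocytes, read 76.5 to 109 in leg control, 1134 to 1750 in leg mdx, 101 to 319 in EOM control and 96.9 to 668 in EOM mdx, with leg mdx above all other arrays, and its contrast was 3.59 ± 0.54. Btk, a tyrosine kinase of B cells and myeloid cells, had a contrast of at least 2.78. Arhgdib, a gene of blood cells, and Wipf1, an actin regulator, had contrasts of 1.07 ± 0.25 and 1.37 ± 0.35.

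Chemokines, the secreted attractants of leukocytes, passed for 5 of 13 ligands, all more positive in leg (median 1.25). Ccl9 read 521, 805, 717, 846 and 611 in leg controls and 3536, 5398, 9110, 4825 and 5280 in leg mdx. For EOM the Ccl9 signals were 1427, 748, 546, 886 and 453 in controls and 2445, 831, 997, 509 and 1544 in mdx. Every leg mdx array lay above all other arrays, and the EOM groups overlapped (contrast 2.41 ± 0.48, adjusted p = 0.00321). Ccl6 had a contrast of at least 2.27. Those of Ccl2 and Ccl7, both ligands of monocytes, were 2.50 and 2.86 but rest on controls at or near the floor. Ccl2 was also higher in EOM mdx than in EOM control, by 1.56, against 4.07 in leg. Of 16 chemokine and cytokine receptors 4 passed. Csf1r, the receptor of the macrophage growth factor, had mean signals of 434 ± 125 in leg control and 2118 ± 501 in leg mdx, and 692 ± 173 and 798 ± 307 in the EOM groups (contrast 2.18 ± 0.38). Its other probe set gave 0.21 (adjusted p = 0.923). Ccr2, the receptor of Ccl2, had a contrast of at least 2.29. The call of Tnfrsf1b (0.81 ± 0.23) was lost in 16 of 20 fits that each left out 1 array, with adjusted p up to 0.0846. That of Csf2ra (at least 2.04) was lost in 8 of the 15 such fits that tested it, with adjusted p up to 0.0834. Both calls were lost without leg control 1 and 4. The call of Csf2ra was also lost with a floor of 20, a floor of 100 or no filter. Csf2ra reached the signal needed for testing only on leg mdx arrays and EOM control 4, so it entered the test mainly through its highest group. None of 8 cytokines and growth factors passed, and 0 had an unadjusted p under 0.05; the brightest, Tgfb3, had a contrast of 0.15 ± 0.28.

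Complement, the cascade that tags cells and debris, passed for 5 of 8 components and for 0 of 6 regulators (2 at an unadjusted p under 0.05). C1qc, a chain of the first component made by macrophages, read 1227, 1654, 1657, 1904 and 1876 in leg controls and 4850, 5259, 7013, 5861 and 6238 in leg mdx. In EOM it read 2665, 1812, 1835, 2003 and 2440 in controls and 2436, 1849, 1884, 1650 and 2310 in mdx. The lowest leg mdx array was above every other array, and the EOM groups shared their range (contrast 1.90 ± 0.21, adjusted p = 7.38e-06). The chains C1qa and C1qb and the receptor C3ar1 had contrasts of 2.51 ± 0.34, 2.77 ± 0.44 and 2.70 ± 0.34. A dimmer probe set of C1qb had a contrast of 1.58 with an adjusted p of 0.163. Serping1, the inhibitor of the first component and the brightest regulator, had a contrast of 0.69 ± 0.27 (adjusted p = 0.149).

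Genes of antigen presentation passed in both MHC classes. MHC class II, found on professional presenting cells, passed for 5 of 9 genes (median 1.03), and class I, found on most cells, for 2 of 10 (median 0.89). H2-Aa, a class II alpha chain, read 702, 666, 706, 854 and 791 in leg controls and 4689, 4247, 5355, 4858 and 4870 in leg mdx. The EOM signals of H2-Aa were 1203, 822, 916, 877 and 608 in controls and 1849, 871, 1140, 715 and 1119 in mdx. Leg mdx stood apart from the other 3 groups, which overlapped (contrast 2.37 ± 0.27, adjusted p = 1.10e-05). Cd74, the invariant chain, and H2-DMa, which loads peptides, had contrasts of 1.91 ± 0.29 and 3.01 ± 0.44, and H2-Ab1 one of 2.40 ± 0.51. For class I, H2-D1 had a contrast of 1.46 ± 0.32 and H2-K1 one of 1.01 ± 0.28, but these genes are near-identical copies whose probe sets can share signal. The other 2 probe sets of H2-K1 had contrasts of 0.74 and 0.16 and did not pass. Among the EOM arrays both genes read highest in EOM control 1, at 5850 for H2-D1 and 7910 for H2-K1, against 5591 and 6987 on the highest leg mdx arrays; the call of H2-K1 was lost in 6 of 20 fits that left out 1 array. Of 13 interferon-induced genes 2 passed, Lgals3bp (1.67 ± 0.34) and Ifi204 (1.26 ± 0.32). All 13 contrasts were above 0 (2670 of 5468 over all tested genes), with a median effect of 0.23 in leg and of -0.48 in EOM. Their summed signal had a median of 6168 in EOM control but reached 20660 on 1 EOM control array, against 4865 to 5259 in EOM mdx. The 2 calls held without EOM control 1, at 1.38 for Lgals3bp and 1.04 for Ifi204; the part of that array in the list's direction was not tested.

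Lysosomal proteases and their inhibitors passed for 8 of 15 (median 0.96), and other lysosomal genes for 5 of 11. Ctss, cathepsin S, which cuts the invariant chain in presenting cells, read 309, 431, 544, 456 and 376 in leg controls and 8474, 7870, 9076, 9909 and 8951 in leg mdx. In EOM, Ctss read 898, 502, 503, 829.6 and 699.9 in controls and 1528, 1235, 921, 1486 and 1898 in mdx. All leg mdx arrays were at 7870 or above, and here the EOM groups did not overlap either, so Ctss was higher in mdx in both muscles and by 3.37 log2 units more in leg (SE 0.27, adjusted p = 8.28e-08). Lgmn, legumain, had mean signals of 404 ± 56.3 in leg control, 1985 ± 191 in leg mdx, 1105 ± 142 in EOM control and 1321 ± 199.6 in EOM mdx. EOM thus already held more Lgmn signal than leg control without mdx (contrast 2.05 ± 0.19). Ctsz and the cathepsin inhibitor Cstb had contrasts of 1.91 ± 0.25 and 1.27 ± 0.19. Among the other lysosomal genes, Gusb, Asah1 and Man2b1, all hydrolases, had contrasts of 1.28 ± 0.27, 1.43 ± 0.31 and 1.59 ± 0.35, and the lipase Lipa one of at least 2.79.

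**Figure D2:**
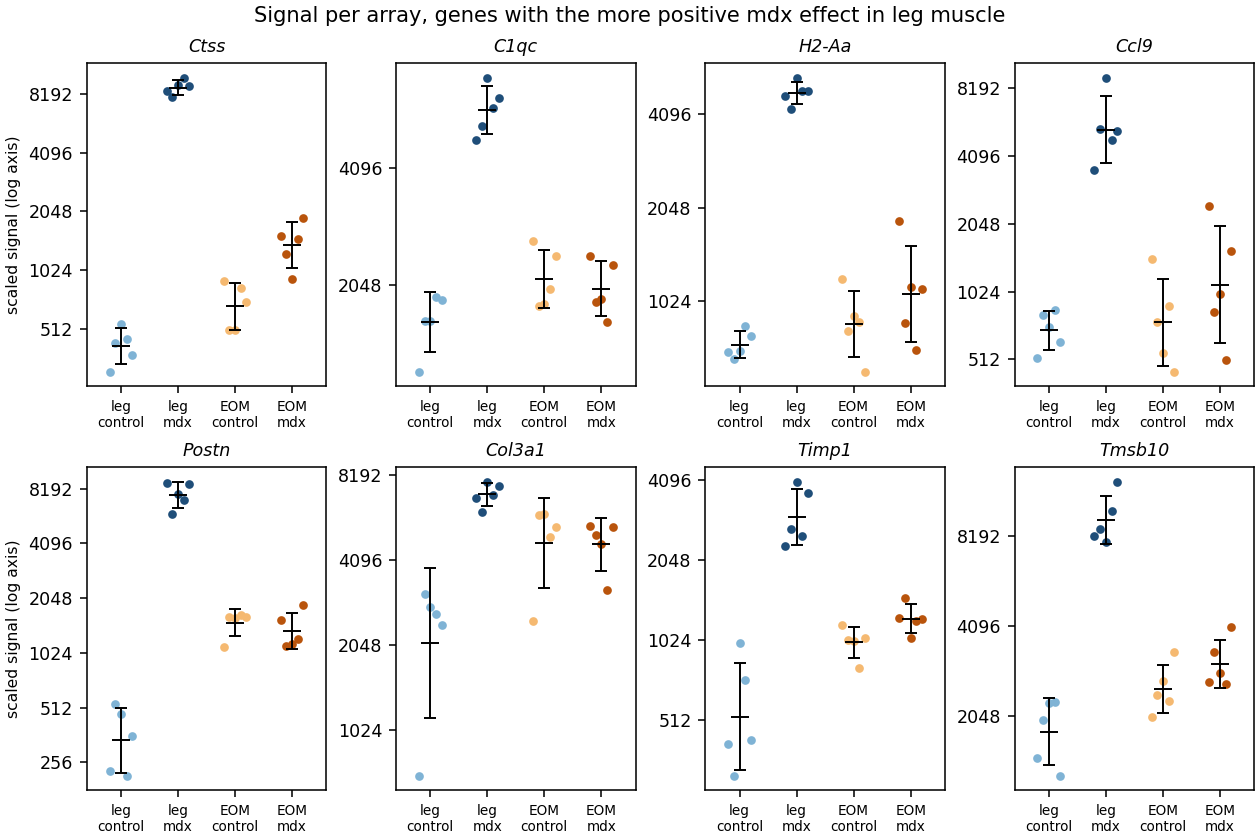
Scaled signal of 8 genes on a log axis, 1 point for each of 5 arrays in each of the 4 groups; the horizontal bar is the mean of the log2 signals and the whiskers span 1 SD. All leg mdx arrays lie above all other arrays for each gene, most narrowly for Col3a1, where the highest EOM control is at 5947 and the lowest leg mdx array at 6064.

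Several lists of extracellular matrix genes had calls, and others had none. Postn, periostin, a matricellular protein of injured and growing connective tissue, had the largest positive contrast of a gene with no array at the floor. It read 228, 534, 474, 216 and 358 in leg controls and 8811, 5930, 7622, 7101 and 8724 in leg mdx. The EOM signals of Postn were 1105, 1618, 1594, 1659 and 1613 in controls and 1544, 1110, 1144, 1216 and 1869 in mdx. Every EOM array lay between the leg groups, and the contrast was 4.63 ± 0.31 (adjusted p = 4.52e-09). In its list 8 of 14 matricellular and adhesive glycoproteins were more positive in leg (median 1.20) and 0 more negative. Fbln2, a fibulin of elastic fibres, had mean signals of 1386 ± 450.3 in leg control, 3236 ± 619 in leg mdx, 2721 ± 476 in EOM control and 2534 ± 581 in EOM mdx (contrast 1.38 ± 0.29). Fn1, fibronectin, and Mfap5, a microfibril protein, had contrasts of 0.95 ± 0.22 and 1.32 ± 0.30. A second probe set of Mfap5 gave -0.23 (adjusted p = 0.789).

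Fibrillar collagens passed for 4 of 7, all more positive in leg (median 1.18). Col3a1, the main collagen of early scar, read 708, 3111, 2790, 2650 and 2418 in leg controls and 6777, 6064, 7724, 6961 and 7495 in leg mdx. For EOM the Col3a1 signals were 2492, 5910, 5947, 4922 and 5374 in controls and 5386, 5033, 4659, 3211 and 5348 in mdx. Leg control 1 was low at 708, and the EOM groups overlapped and sat between the means of the leg groups. The contrast of 1.76 ± 0.43 (adjusted p = 0.014) was 1.37 without that array. Col5a2 and Col1a1 had contrasts of 2.51 ± 0.47 and 1.56 ± 0.40, which were 2.09 and 1.23 without leg control 1. A second probe set of Col1a1 gave 0.34 (adjusted p = 0.543). The call of Col1a2 (1.18 ± 0.35) was lost in 14 of 20 fits that left out 1 array, with adjusted p up to 0.0963, reached without EOM control 3. Among other collagens 2 of 5 network types passed, Col8a1 (1.44 ± 0.27) and Col18a1 (0.96 ± 0.22), and 1 of 7 beaded and FACIT types, Col6a3 (1.31 ± 0.28). A second probe set of Col18a1 gave -0.01 (adjusted p = 0.990). Of 9 genes of collagen processing 0 passed (2 at an unadjusted p under 0.05); the chaperone Serpinh1 was the brightest, at 1.04 ± 0.33 (adjusted p = 0.066). None of 14 laminins, nidogens and muscle integrins passed either (3 at an unadjusted p under 0.05), with a median of 0.33, and Itgb1, their brightest member, had a contrast of 0.32 ± 0.20.

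Small leucine-rich proteoglycans, which bind collagen fibrils and growth factors, passed for 3 of 6. Bgn, biglycan, read 1184, 2104, 2982, 1873 and 1216 in leg controls, 6968, 7011, 9928, 10278 and 5926 in leg mdx, 3787, 4623, 5546, 4759 and 4124 in EOM controls and 5136, 4407, 4816, 3542 and 3250 in EOM mdx. Both EOM groups lay above the leg controls and below leg mdx, with a contrast of 2.27 ± 0.31, while a second probe set of Bgn gave 0.07 (adjusted p = 0.971). The calls of Lum, lumican (1.34 ± 0.37), and Ogn, osteoglycin (1.35 ± 0.40), were lost in 12 and 14 of 20 fits that left out 1 array, and without leg control 1 and 4 only Bgn passed in this list. Timp1, an inhibitor of matrix metalloproteinases, read 417, 317, 1000.0, 729 and 430.4 in leg controls and 2325, 2684, 4031, 2527 and 3676 in leg mdx. In EOM, Timp1 read 1167, 1026, 1015, 808 and 1047 in controls and 1242, 1479, 1046, 1208 and 1237 in mdx. The EOM groups overlapped and leg mdx lay above them (contrast 2.20 ± 0.33). It was 1 of 4 genes to pass among 8 metalloproteinases and inhibitors. Mmp12, the macrophage elastase, was higher in mdx in both muscles, by 4.57 in leg and 1.35 in EOM, and its contrast of 3.22 depends on the floor. Mmp3, stromelysin, had means of 40.0 ± 31.3 in leg control and 448 ± 113 in leg mdx, and 241 ± 37.5 and 501 ± 119 in the EOM groups, so EOM mdx reached the level of leg mdx (contrast at least 1.91). The contrast of Adam19 was at least 1.59, and its call was lost in 16 of 20 fits that left out 1 array.

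Fibroblast markers passed for 4 of 11 (median 1.01). Pdgfra, the receptor that marks fibro-adipogenic progenitors, read 676, 1235, 1274, 1418 and 1352 in leg controls and 2436, 3024, 3228, 2974 and 2852 in leg mdx. The EOM signals of Pdgfra were 2310, 3575, 3281, 2719 and 3298 in controls and 1821, 3299, 3504, 3049 and 3336 in mdx. Both EOM groups thus overlapped leg mdx, and leg control was low, lowest in leg control 1 at 676 (contrast 1.36 ± 0.27, 1.17 without that array). S100a4, a calcium-binding protein of fibroblasts and macrophages, had a contrast of 2.22 ± 0.35 and showed the other arrangement. Its mean signals were 498 ± 196 in leg control, 3535 ± 919.8 in leg mdx, 367 ± 91.1 in EOM control and 583 ± 101 in EOM mdx. Summed fibroblast signal was 28474 to 35835 in leg control, 38476 to 46512 in leg mdx, 29129 to 44569 in EOM control and 31764 to 47688 in EOM mdx. None of 14 endothelial, 9 smooth muscle, 6 Schwann cell and 8 adipocyte markers passed, with 2, 1, 0 and 3 at an unadjusted p under 0.05 and medians of -0.16, -0.25, 0.27 and 0.04. Their brightest members, the endothelial co-receptor Eng, Des, the myelin gene Pmp22 and the lipase Lpl, had contrasts of -0.07 ± 0.24, -0.43 ± 0.20, 0.38 ± 0.29 and -0.89 ± 0.28.

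**Figure D3:**
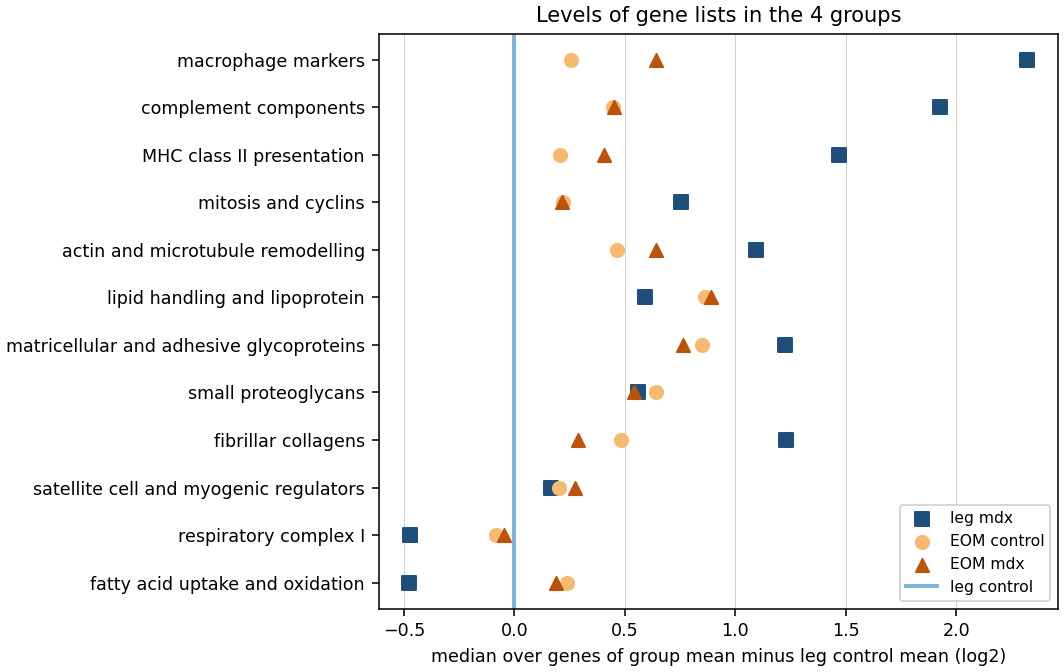
For 12 gene lists, the median over genes of the group mean minus the leg control mean (log2), with leg control at 0 (line), leg mdx as squares, EOM control as circles and EOM mdx as triangles. For macrophage markers both EOM medians lie far below leg mdx, while for small proteoglycans and lipid handling the EOM medians reach or pass it. Taken gene by gene, the median of EOM mdx minus leg mdx was -0.37 for small proteoglycans and 0.16 for lipid handling.

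Several genes were higher in EOM control than in leg control, some of them up to the level of leg mdx or above. Apoe, apolipoprotein E, read 253, 1457, 1767, 1673 and 1419 in leg controls and 8709, 7514, 5372, 7153 and 7061 in leg mdx. For EOM the Apoe signals were 3485, 3180, 3229, 3510 and 2909 in controls and 4633, 4675, 3521, 3222 and 3534 in mdx, between the leg groups. Leg control 1 read 253 for Apoe, and the contrast of 2.45 ± 0.49 was 1.92 without it. Of 14 genes of lipid handling 4 passed, with Pltp, a phospholipid transfer protein, at 2.09 ± 0.32, Abca1, the cholesterol exporter, at 1.51 ± 0.26 (1.58, adjusted p = 0.0554, by its other probe set) and the receptor Lrp1 at 0.76 ± 0.22, a call lost in 12 of 20 fits that left out 1 array. Chrna1, the alpha subunit of the muscle acetylcholine receptor, read 219, 362, 221, 319 and 249 in leg controls and 1207, 1165, 1020, 1214 and 1198 in leg mdx. Its EOM signals were 1463, 1513, 1506, 1523 and 2171 in controls and 1652, 2016, 2346, 1339 and 2497 in mdx, so all EOM arrays lay above all leg arrays. Its contrast was 1.86 ± 0.24 (adjusted p = 4.08e-05), the only call among 9 genes of the receptor and the junction. Gatm, the first enzyme of creatine synthesis, had mean signals of 273 ± 102 in leg control, 1392 ± 256 in leg mdx, 908 ± 34.6 in EOM control and 826 ± 167 in EOM mdx (contrast 2.59 ± 0.31).

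Regulators of satellite cells and myogenesis passed for 4 genes more positive in leg and 1 more negative, of 24. Peg3, an imprinted zinc-finger gene of muscle progenitors, read 663, 441, 464, 413 and 401 in leg controls and 2408, 1882, 1474, 2105 and 1961 in leg mdx. In EOM, Peg3 read 1962, 2427, 2735, 2070 and 2262 in controls and 2354, 3100, 2948, 2576 and 2807 in mdx. Leg control was the low group and the other 3 groups were close together (contrast 1.78 ± 0.21, adjusted p = 1.10e-05). Id2, an inhibitor of differentiation, had the same arrangement, with means of 175 ± 74.2 and 825 ± 159.9 in leg and 581 ± 116 and 722 ± 101 in EOM (contrast 2.02 ± 0.36). Mest, another imprinted gene, had means of 123 ± 39.5, 488 ± 130.4, 216 ± 62.1 and 181 ± 36.0 in leg control, leg mdx, EOM control and EOM mdx, so leg mdx alone was high (contrast 2.24 ± 0.38). The adhesion molecule Ncam1 had a contrast of 0.80 ± 0.18. Sdc3, a syndecan of satellite cells named after its value was seen, was the member more negative in leg, at -1.15.

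Among 16 contractile genes of embryonic and regenerating fibres 3 passed. Tnnt2, the cardiac and embryonic troponin T, read 153, 168, 158, 129 and 192 in leg controls and 839, 575, 715, 852 and 780.4 in leg mdx. The EOM signals of Tnnt2 were 379, 305, 301, 367 and 351 in controls and 332, 524, 453, 424 and 378 in mdx. Leg mdx was the highest group and the EOM groups overlapped between it and leg control (contrast 1.93 ± 0.23, adjusted p = 1.67e-05). Ankrd1, a stretch-responsive protein of the sarcomere, was higher in mdx in leg by 3.52 and in EOM by 1.57, with low signals in controls. Nes, nestin, of regenerating fibres, had a contrast of 0.80 ± 0.22, a call lost in 5 of 20 fits that left out 1 array. The embryonic myosin Myh3, named after its value was seen, had a contrast of -0.10. None of 15 fast-fibre genes, 10 slow-fibre genes or 13 genes of calcium handling passed, with 2, 1 and 5 at an unadjusted p under 0.05 and medians of -0.44, 0.38 and -0.29. Their brightest members, the troponin Tnnt3, myoglobin (Mb) and the calcium release channel Ryr1, had contrasts of -0.52 ± 0.31, -0.40 ± 0.25 and -0.45 ± 0.26. Without leg control 1 and 4 these were -0.35, -0.20 and -0.26.

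Growth signals passed for single genes. Igf2, a fetal growth factor, had mean signals of 1851 ± 225 in leg control, 5704 ± 909.9 in leg mdx, 2570 ± 587 in EOM control and 3180 ± 825 in EOM mdx (contrast 1.32 ± 0.25) and was the only call among 9 genes of its pathway. In the TGF-beta, activin and BMP pathway, 1 of 16 genes was more positive in leg and 1 more negative. Fstl1, a secreted follistatin-like protein, had a contrast of 1.69 ± 0.28. Mstn, myostatin, the inhibitor of muscle growth, read 1210, 1997, 1645, 1014 and 1658 in leg controls and 679, 795, 345, 629 and 638 in leg mdx. For EOM the Mstn signals were 764, 892, 818, 737 and 1305 in controls and 1064, 769.8, 844, 785 and 871 in mdx. The leg groups did not overlap and the EOM groups did, with a contrast of -1.26 ± 0.30 (adjusted p = 0.0117).

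Of 17 genes of mitosis and cyclins 7 passed, all more positive in leg (median 1.01), and of 16 genes of DNA replication 2 passed, also more positive in leg (median 0.63). Smc4, a condensin subunit, had mean signals of 226 ± 24.2 in leg control, 568 ± 70.1 in leg mdx, 317 ± 60.6 in EOM control and 271 ± 53.6 in EOM mdx (contrast 1.56 ± 0.25). The contrast of cyclin B2 (Ccnb2) was 1.09 ± 0.26, and that of Cks1b, a subunit of cyclin-dependent kinases, was 2.91 from controls near the floor. Rrm2, of ribonucleotide reductase, and Mcm5, of the replicative helicase, had contrasts of 1.49 ± 0.38 and 2.16 ± 0.59. Rrm2 reached 200, the signal needed for testing, only on the leg mdx arrays, so it entered the test through its highest group. Without leg control 1 and 4 the counts were 4 for mitosis and 0 for replication. The call of Mcm5 was also lost in 8 of 20 fits that left out 1 array. None of 13 cyclin kinase inhibitors and p53 targets passed (3 at an unadjusted p under 0.05); Cdkn1b, the brightest, had a contrast of -0.70 ± 0.29.

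Genes that remodel actin filaments and microtubules passed for 9 of 16 (median 0.92). Tmsb10, a thymosin that binds actin monomers, read 1487, 1994, 2264, 2286 and 1297 in leg controls and 8226, 8649, 7877, 9988 and 12457 in leg mdx. In EOM, Tmsb10 read 2042, 2422, 2694, 2314 and 3352 in controls and 2671, 3357, 2853, 2630 and 4071 in mdx. All leg mdx arrays were above all other arrays, and the EOM groups overlapped (contrast 2.07 ± 0.25, adjusted p = 1.67e-05). The tubulins Tubb5 and Tubb2a had contrasts of 1.78 ± 0.19 and 1.77 ± 0.24. Stmn1, stathmin, which takes microtubules apart in dividing cells, had means of 159 ± 86.8 and 813 ± 174 in leg control and leg mdx and of 744 ± 75.0 and 713 ± 98.3 in EOM control and EOM mdx (contrast at least 2.57). Annexins and S100 proteins, which bind calcium and membranes, passed for 5 of 14. Anxa1 was higher in mdx by 2.54 in leg and by 0.68 in EOM (contrast 1.86 ± 0.29), while its other 2 probe sets, at 1.42 and 1.32, did not pass. Anxa4 and Anxa2 had contrasts of 1.23 ± 0.28 and 1.07 ± 0.28, and the call of Anxa2 was lost in 2 of 20 fits that left out 1 array.

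Stress genes were mixed. Of 22 antioxidants and metallothioneins 4 passed, all more positive in leg, while the median was -0.08. Mt1, a metal-binding metallothionein, had means of 1157 ± 484 in leg control, 4278 ± 1587 in leg mdx, 2355 ± 543 in EOM control and 2716 ± 346 in EOM mdx (contrast 1.67 ± 0.33). Its neighbour Mt2 was higher in mdx in both muscles, by 2.37 in leg and 1.34 in EOM (contrast 1.03 ± 0.28). It read 4025, 1963, 2235, 2386 and 2381 in EOM controls and 8552, 6308, 5127, 6036 and 6178 in EOM mdx. The 2 peroxide and superoxide enzymes Prdx4 (0.92 ± 0.25) and Sod3 (0.85 ± 0.25) lost their calls in 8 and 15 of 20 fits that left out 1 array and without leg control 1 and 4. Of 18 heat shock and chaperone genes Pdia6 passed, at 1.26 ± 0.36, with leg control 1 low at 149; its call was lost in 12 of 20 fits that left out 1 array, with adjusted p up to 0.0819. None of 24 proteasome genes, 11 atrophy genes and 17 immediate early genes passed, with 2, 3 and 4 at an unadjusted p under 0.05 and medians of -0.10, -0.17 and 0.33, and their brightest members Psma3, Map1lc3a and Jund had contrasts of -0.28 ± 0.19, -0.08 ± 0.16 and 0.16 ± 0.26. In iron handling, the iron transporter Slc11a1 of macrophages was more positive in leg (2.29 ± 0.61) and Alas1, the first enzyme of haem synthesis, more negative (-0.81 ± 0.18), of 8 genes. The calls of Mt2 and Slc11a1 were lost in 5 and 4 of the 20 fits that left out 1 array, with adjusted p up to 0.0621 and 0.0561. Sat1, of polyamine breakdown, was the 1 gene of 9 to pass in amino acid and polyamine metabolism (1.27 ± 0.35), and its call was lost in 11 of those 20 fits, with adjusted p up to 0.0693.

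**Figure D4:**
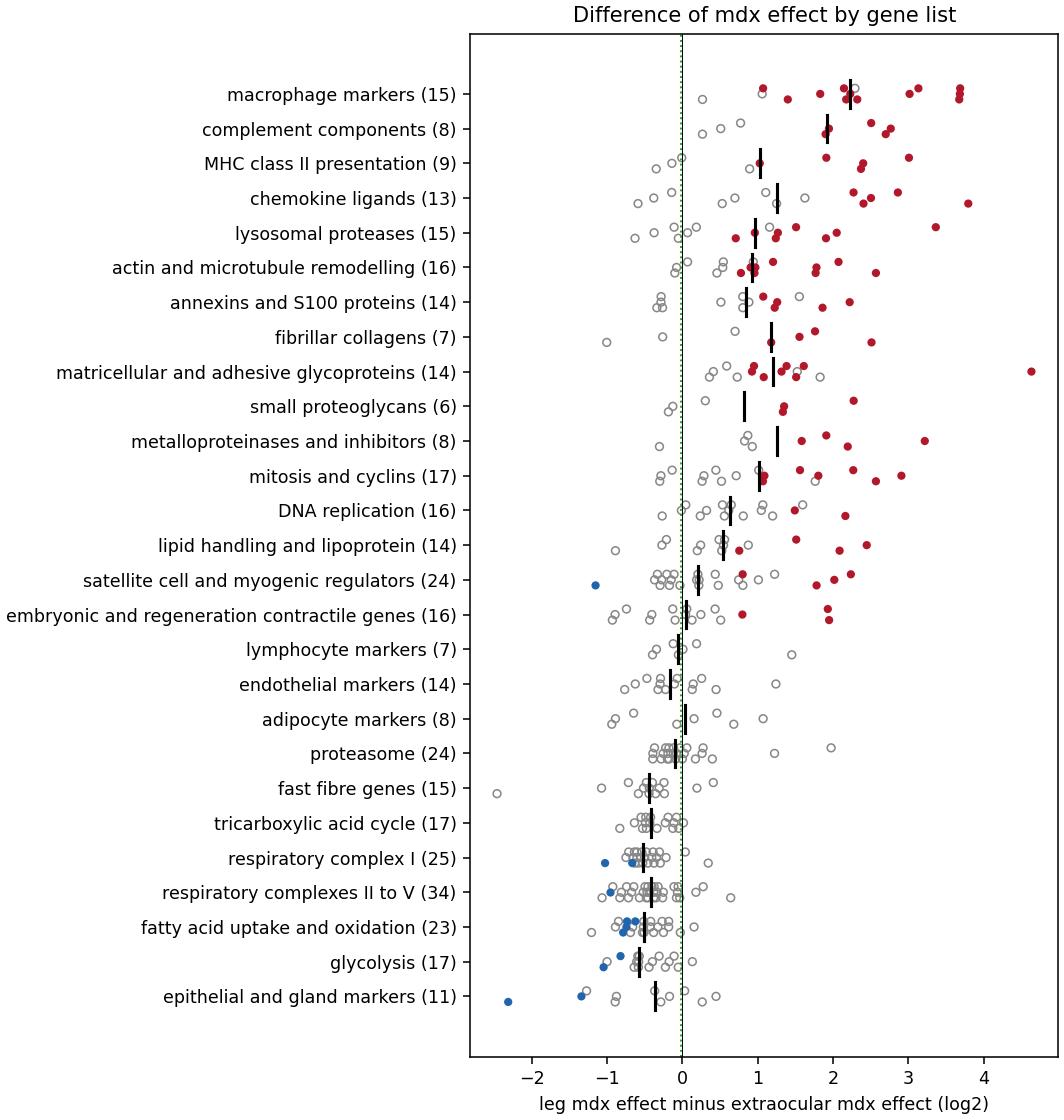
Each point is 1 gene of a list (tested genes in parentheses), placed by the leg mdx effect minus the EOM mdx effect (log2); filled red and blue points passed the test, open points did not, the black bar is the list median and the dotted line the median of all genes. The medians of the macrophage, complement, MHC class II, chemokine, matrix and cell-division lists lie to the right of 0, with macrophage markers at 2.23. Lymphocyte markers have a median of -0.05, and metabolic lists lie to the left.

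Energy metabolism lay on the negative side, by smaller steps and with few calls. Of 23 genes of fatty acid uptake and oxidation 4 were more negative in leg and 0 more positive, and 22 contrasts were below 0 (median -0.51). In glycolysis 2 of 17 passed and 16 were below 0 (median -0.57). Complex I of the respiratory chain had 2 of 25 calls and a median of -0.53, and complexes II to V had 1 of 34 and a median of -0.42. The tricarboxylic acid cycle had 0 of 17 (7 at an unadjusted p under 0.05), with a median of -0.42, and glycogen metabolism 0 of 9 (3 unadjusted), with a median of -0.35. Across these 2 lists the brightest genes, Mdh2 and Pgm1, had contrasts of -0.42 ± 0.26 and -0.36 ± 0.24. Leg control 1 read 20599 for Mdh2, above the other leg controls at 11769 to 14250. Without leg control 1 and 4 the contrasts of Mdh2 and Pgm1 were -0.29 and -0.30. Over all 5468 tested genes the median was -0.01, 2798 contrasts were below 0, and 1.41% were called more negative in leg.

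Hk2, the muscle hexokinase that traps glucose, read 5027, 4080, 4039, 5992 and 5196 in leg controls and 2881, 2672, 2027, 2557 and 2461 in leg mdx. In EOM, Hk2 read 5665, 6395, 6551, 5149 and 7229 in controls and 6079, 6619, 7254, 5683 and 7583 in mdx. Leg mdx was the low group and the EOM groups overlapped (contrast -1.04 ± 0.19, adjusted p = 0.00129). Slc2a4, the insulin-regulated glucose transporter, had a contrast of -0.82 ± 0.18. Ech1, an enzyme that handles unsaturated fatty acids, read 7589, 5663, 6009, 4960 and 5980 in leg controls and 3847, 3529, 3594, 3873 and 3460 in leg mdx. Its EOM signals were 10281, 11901, 10976, 10126 and 12941 in controls and 13114, 11541, 10956, 9638 and 12288 in mdx, all above every leg array (contrast -0.74 ± 0.17, adjusted p = 0.00899). Crat, carnitine acetyltransferase, had a contrast of -0.79 ± 0.19. Those of Eci1 and Hadh, enzymes of beta-oxidation, were -0.62 ± 0.17 and -0.73 ± 0.20, and their calls were lost in 6 and 10 of 20 fits that left out 1 array. Atp5e, a small subunit of ATP synthase, read 10070, 10012, 10307, 10656 and 10044 in leg controls and 5423, 6884, 3989, 5714 and 6147 in leg mdx. For EOM the Atp5e signals were 7787, 8694, 9520, 7713 and 5746 in controls and 8762, 8448, 7576, 8156 and 8350 in mdx. The leg groups did not overlap, with leg mdx below (contrast -0.97 ± 0.20, adjusted p = 0.00373). The complex I subunits Ndufb6 (-0.66 ± 0.19) and Ndufs4 (-1.03 ± 0.30) lost their calls in 13 and 17 of the 20 fits. Adssl1, the muscle enzyme of the purine nucleotide cycle, had a contrast of -0.69 ± 0.14. Its call was lost under quantile normalization (limma, adjusted p = 0.113), as was that of Ndufb6. None of 10 genes in mitochondrial biogenesis and transport passed (4 at an unadjusted p under 0.05). The brightest, Slc25a4, had a contrast of -0.63 ± 0.39 (adjusted p = 0.436). Leg control 1 read 26198 for Slc25a4, and the other leg controls 9503 to 17220. Without leg control 1 and 4 the contrasts of Slc25a4 and Adssl1 were -0.43 and -0.63, while those of Hadh and Ndufs4 were -0.81 and -1.21.

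**Figure D5:**
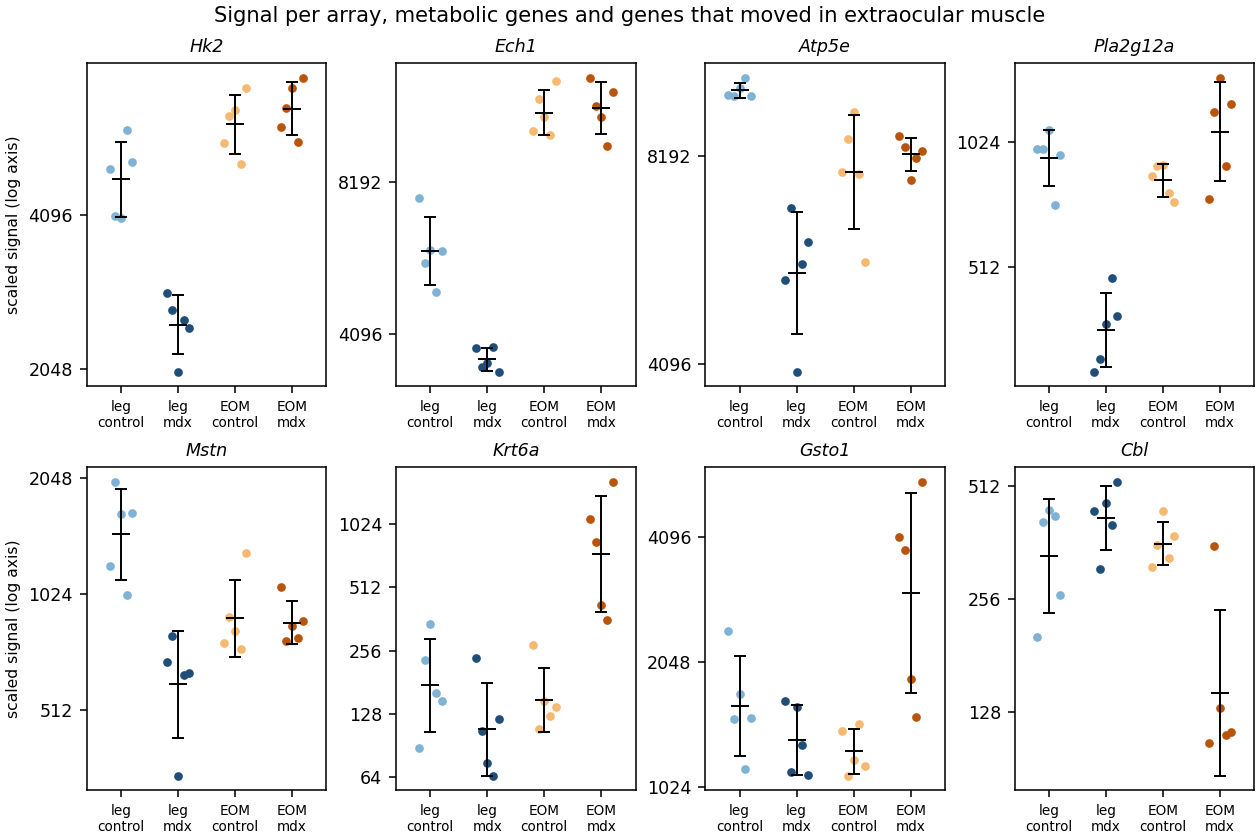
Scaled signal of 8 genes on a log axis, 1 point for each of 5 arrays in each group, with the mean of the log2 signals and 1 SD. Leg mdx is the low group for Hk2, Ech1, Atp5e, Pla2g12a and Mstn, EOM mdx is the high group for Krt6a and Gsto1, and EOM mdx is low for Cbl in all arrays but 1.

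Other genes more negative in leg included membrane proteins. Aqp4, the water channel anchored by the dystrophin complex, read 1221, 3336, 2610, 3431 and 3277 in leg controls and 657, 876, 364, 752 and 674 in leg mdx. In EOM, Aqp4 read 1937, 2221, 2414, 1695 and 2343 in controls and 1938, 2089, 1881, 1602 and 1797 in mdx. The leg mdx arrays lay below all other arrays, and EOM mdx overlapped EOM control (contrast -1.84 ± 0.34, adjusted p = 0.00141). It was the only call among 12 genes of the dystrophin complex. Aqp1, the water channel of endothelium, had a contrast of -1.10 ± 0.30, with its call lost in 6 of 20 fits that left out 1 array. Pla2g12a, a secreted phospholipase, read 986, 986, 1096, 723 and 955 in leg controls and 286, 306, 372, 481 and 390.2 in leg mdx. Its EOM signals were 851, 900.4, 903, 772 and 733 in controls and 748, 1214, 1468, 900.3 and 1270 in mdx. Leg mdx was again below all other arrays (contrast -1.77 ± 0.25, adjusted p = 8.53e-05); another probe set of the gene, at -0.59, did not pass. Pcp4l1, a small calmodulin-binding protein, had a contrast of -1.54 ± 0.24, with 2 further probe sets at -0.14 and -0.91 that did not pass. Fam220a and the zinc-finger gene Zbtb17 had contrasts of -1.43 ± 0.29 and -1.67 ± 0.43, and the other probe set of Fam220a gave -0.41 (adjusted p = 0.260). Zbtb17 reached 200, the signal needed for testing, only on the leg control arrays, so it entered the test through its highest group.

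Nr1d1, a repressor of the circadian clock, had mean signals of 2301 ± 522 in leg control, 1123 ± 184 in leg mdx, 1416 ± 88.4 in EOM control and 1357 ± 184 in EOM mdx. Its contrast was -0.95 ± 0.21, the only call among 9 clock genes. All 9 had contrasts below 0 (2798 of 5468 over all tested genes). The hour of sampling is not given in the labels. Wnt4 and Ndp, both ligands of Frizzled receptors, had contrasts of -2.07 and -2.02, whose size the floor understates, and their calls were lost in 10 and 12 of 20 fits that left out 1 array. None of 9 limb and head position factors passed, and 0 had an unadjusted p under 0.05; Tbx15 was the brightest (-0.16 ± 0.39). Among 19 ribosomal protein genes, Rpl13a was more positive in leg (1.23 ± 0.22) and Rpl41 more negative (-4.03 ± 0.77), and the median was -0.08. Rpl41 read 14498, 3605, 3940, 3997 and 11489 in leg controls, 1376, 646, 162, 336 and 1228 in leg mdx, 1833, 5148, 5044, 1967 and 5487 in EOM controls and 14058, 3616, 5192, 3091 and 4681 in EOM mdx. It had the most negative contrast of any named gene, from a probe set whose type can match several near-identical sequences, so its identity is uncertain.

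A small number of genes moved in EOM rather than in leg. For 15 of the 448 probe sets the EOM effect was larger in size than the leg effect, and for 23 the effects had opposite signs with each at least 0.5 log2 units. Over all 7204 tested probe sets these counts were 2259 and 76. Krt6a, a keratin of stratified and wounded epithelium, read 88.1, 230.2, 342, 160.0 and 146 in leg controls and 236, 106, 74.3, 64.9 and 121 in leg mdx. In EOM, Krt6a read 271, 109, 147, 125 and 137 in controls and 1082, 843, 420.0, 358 and 1628 in mdx, with every EOM mdx array above every other array. Its contrast was -3.01 ± 0.61 (adjusted p = 0.00355), and a brighter probe set gave -1.34 ± 0.38, a call lost in 10 of 20 fits that left out 1 array. Sfn, the epithelial protein stratifin, was higher in EOM mdx than in EOM control by 1.67, with low leg signals. Sfn reached the signal needed for testing only on EOM mdx arrays and EOM control 1, so it entered the test mainly through its highest group. Krt6a and Sfn belong to 11 epithelial and gland markers, of which these 2 passed (median -0.37). The summed signal of these markers was 9410 to 10958 in EOM control and 10012 to 12403 in EOM mdx. In leg it was 5771 to 18535 in control, with a median of 7457, and 4368 to 7135 in mdx. The highest leg control sum thus lay above every EOM array. The part of such tissue in the result was not tested.

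Gsto1, a glutathione transferase, read 2432, 1496, 1715, 1135 and 1508 in leg controls and 1651, 1118, 1597, 1297 and 1096 in leg mdx. The EOM signals of Gsto1 were 1398, 1093, 1191, 1455 and 1154 in controls and 4113, 3817, 1870, 1516 and 5565 in mdx, so 3 EOM mdx arrays were high and 2 were nearer to the controls (contrast -1.54 ± 0.38, adjusted p = 0.0165). Mgll, a lipase of monoglycerides, had a contrast of -0.72 ± 0.19, with another probe set at 0.30 that did not pass, and its call was lost in 1 of 20 fits that left out 1 array. Cbl, a ubiquitin ligase of receptor kinases, read 311, 356, 439, 329 and 376 in EOM controls and 106, 355, 131, 111 and 113 in EOM mdx. In leg it read 203, 409, 442, 426 and 263 in controls and 439, 308, 461, 403 and 525 in mdx. Of the 5 EOM mdx arrays 4 were low and EOM mdx 2 was at 355, within the range of the controls (contrast 1.66 ± 0.41, adjusted p = 0.0165). Septin11, a filament protein of the cell cortex, had an EOM effect of -0.52 and a leg effect of 0.13 (contrast 0.65 ± 0.17). Among genes with opposite effects, Phkg2, a subunit of phosphorylase kinase, was 0.62 in leg and -0.61 in EOM, and Efl1, of ribosome assembly, was 1.16 and -1.04. For Rnf20, a ubiquitin ligase of histone H2B, the effects were 0.89 and -1.34, and for Nckap1l, an actin regulator of blood cells, 1.32 and -0.96. The copper transporter Atp7b (-1.58 ± 0.46) and Spout1 (-1.50 ± 0.43) went the other way. Atp7b reached the signal needed for testing only on leg control and EOM mdx arrays, so it entered the test through its higher groups. The other probe set of Rnf20 gave a contrast of 0.95 (adjusted p = 0.215). With array weights Cbl and Phkg2 lost their calls (limma, adjusted p = 0.0761 and 0.0530). With no filter Gsto1 and Efl1 lost theirs (limma, adjusted p = 0.0556 and 0.0531), as did Rnf20, Nckap1l and Spout1. The calls of Rnf20, Nckap1l and Spout1 were lost in 3, 12 and 14 of 20 fits that left out 1 array. That of Atp7b was lost in 10 of the 15 such fits that tested it.

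The remaining genes with the most positive contrasts were Slfn2, a regulator of immune cell quiescence, with a contrast of 2.86 ± 0.56, and the probe set assigned to the pseudogene Gpr137b-ps, with one of 2.79 ± 0.50. Of the 134 called probe sets named by rule, 30 lost an adjusted p under 0.05 in at least 1 of the 20 fits that left out 1 array. The other 104 kept it in every such fit that tested them. Among these, Zbtb17, Sfn and Rrm2 were tested in only 15 of the 20 fits. Without leg control 1 and 4, 21 of the 134 no longer passed: Spout1, Rnf20, Nckap1l, Septin11, Tnfrsf1b, Csf2ra, Col1a2, Lum, Ogn, Nes, Rrm2, Mcm5, Ccnb2, Eci1, Ndufb6, Prdx4, Sod3, Anxa2, Lrp1, Aqp1 and Wnt4. Zbtb17 and Atp7b were not tested in that fit.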

How the data were processed

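Expression was measured on 20 Affymetrix short-oligonucleotide arrays, 1 per sample, in 4 groups of 5 (leg and extraocular muscle, control and mdx). The authors deposited 1 linear signal intensity for each of 12654 probe sets and array. No source used here names the software behind the values, and the labels of the mdx arrays name only a standard protocol. The deposited values run from 0.4 to 95477, each array has a trimmed mean of 1500, and no pair of arrays was identical.

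The 66 control probe sets were left out, each array was scaled to a trimmed mean of 500 (2% at each end), signals under a floor of 50 were set to 50, and log2 was taken. Probe sets at 200 or more on at least 5 arrays were tested (7204 of 12588). One model over all 20 arrays, with 16 residual degrees of freedom, was fitted in limma 3.58.1 (R 4.3.3; lmFit, eBayes with an intensity trend), and the contrast was adjusted over all 7204 by Benjamini-Hochberg at 0.05. Errors of contrasts are standard errors of that fit. The script was tested on simulated data. Where controls are at the floor, contrasts are given as "at least" or as depending on the floor; 66 of the 448 called probe sets have an array at it.

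Symbols come from the platform annotation: 10298 probe sets have 1, 363 several and 1993 none listed. A gene is counted by its brightest tested probe set with 1 symbol. The genes named are the 10 most positive and 10 most negative contrasts with no array at the floor, up to 4 called genes of each of 69 lists or the brightest where none passed, up to 8 with opposite effects, up to 6 with a larger EOM effect, Dmd and Utrn. The contrast, the lists and this rule were chosen with earlier results of these data known. Alternatives were the scaling, floor, filter, variance model, array weights, probe set rule, a replicate block, leaving out each array, and leaving out leg control 1 and 4 together. Probe number and array number limit the precision; no counting error applies.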

Additional observations from a re-analysis of the deposited data

Results flagged for a closer look

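The mdx effect differed between leg and extraocular muscle by the test of the difference itself for 448 probe sets, and for the beta-actin 3′ to 5′ log2 ratio, at -2.4489. The part of the ratio in the gene results was not tested.

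Among the called genes named above, with Dmd and Utrn, 544 groups of 5 arrays were examined for an array far from its group, and 56 held one (10.3%). Chance alone marks about 1 in 20 groups, and genes on 1 array are not independent. Of the 56, 21 lay in leg control 1, 8 in EOM control 1 and 7 in EOM control 5. Leg control 1 read below the other 4 arrays for C1qb (216, others 404 to 477), Aqp4 (1220, others 2610 to 3430), Arhgdib (763, others 1240 to 1440), C1qa (592, others 842 to 968), Asah1 (160, others 345 to 432), Col5a2 (188, others 637 to 944), Col3a1 (708, others 2420 to 3110), Col1a2 (931, others 2330 to 2830), Col6a3 (994, others 2130 to 2650), Mfap5 (339, others 612 to 758), Lum (454, others 1070 to 1490), Ndufs4 (376, others 598 to 657), Pdia6 (149, others 399 to 511), Prdx4 (280, others 356 to 388), Anxa1 (506, others 820 to 988), Alas1 (3730, others 5330 to 5840), Apoe (253, others 1420 to 1770) and Pdgfra (676, others 1230 to 1420). It read above the other 4 arrays for Peg3 (663, others 401 to 464), Eci1 (6530, others 4160 to 4400) and Mt1 (2010, others 851 to 1040). EOM control 1 read below the other 4 arrays for Postn (1110, others 1590 to 1660), Col3a1 (2490, others 4920 to 5950) and Col6a3 (1710, others 2020 to 2120). It read above the other 4 arrays for H2-D1 (5850, others 1980 to 2160), H2-K1 (7910, others 3250 to 3620), Lgals3bp (1240, others 424 to 527), Mt1 (3310, others 1980 to 2260) and Mt2 (4030, others 1960 to 2390). EOM control 5 read below the other 4 arrays for Zbtb17 (90.6, others 144 to 171), Lipa (70.4, others 206 to 314) and Utrn (87.8, others 246 to 363). It read above the other 4 arrays for C3ar1 (335, others 198 to 224), Cstb (2950, others 1960 to 2090), Chrna1 (2170, others 1460 to 1520) and Cks1b (257, others 32.4 to 62.8). Leg mdx 3 read below the other 4 arrays for Lcp1 (1130, others 1640 to 1750), Mstn (345, others 629 to 795) and Chrna1 (1020, others 1160 to 1210). It read above the other 4 arrays for Asah1 (1070, others 742 to 814). EOM mdx 1 read below the other 4 arrays for Wipf1 (284, others 334 to 348) and Pdgfra (1820, others 3050 to 3500). It read above the other 4 arrays for Asah1 (816, others 468 to 549) and Pdia6 (801, others 440 to 523). Leg mdx 5 read below the other 4 arrays for Eci1 (2330, others 2810 to 2970). It read above the other 4 arrays for Csf1r (3000, others 1760 to 2010) and Anxa2 (8130, others 4530 to 5320). On other arrays, single signals stood apart: Cbl at 355 on EOM mdx 2, Fcgr2b at 137 on leg control 4, Ccl7 at 76.6 on leg control 2, Ccr2 at 85.3 on EOM control 2, Col3a1 at 3210 on EOM mdx 4, Mcm5 at 417 on leg control 3, Gatm at 1120 on EOM mdx 2, Rpl13a at 310 on EOM mdx 3 and Dmd at 175 on EOM mdx 5.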

How the results depend on the processing

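The count of probe sets with a different mdx effect was 448 and lay between 354 (no filter) and 474 (array weights, and a floor of 100) over the planned settings that kept all arrays, and between 318 and 459 when 1 array was left out; without leg control 1 and 4 it was 362. The called probe sets that were tested kept their sign under each of these. Leaving out 1 array gave 260 to 368 more positive and 51 to 96 more negative in leg, and 268 to 374 genes. The lowest total came without leg mdx 5, and the negative count was 51 without EOM mdx 3, 56 without EOM control 4 or leg mdx 5 and 60 without leg mdx 3; fewer samples enter those fits. With the replicate number as a block 458 probe sets passed, 410 of them among the 448; the calls of Atp7b, Nckap1l, Csf2ra, Adam19, Ndufb6, Ndufs4 and Prdx4 were not among them. The labels do not say that a number marks a shared animal or day. Deviations of same-numbered arrays of different groups correlated by a median of 0.029, over 0.1 in 4 of 30 pairs (highest 0.228), and 10 of 20 arrays correlated best with their own number, a hint of pairing from the data and not from the design. The beta-actin ratio contrast lay between -2.86 and -2.01 when 1 array was left out, and without leg control 1 and 4 it was -2.32 (exact permutation, adjusted p = 0.0605). The Gapdh contrast lay between -1.39 and -0.80, with an adjusted p of 0.0248 without leg control 5. Over all settings, 4721 values of named genes kept direction and side of the threshold, 379 fell short of it, 10 passed it and 9 changed sign. The 9 belong to genes that did not pass: Psma3 (0.0195) and Map1lc3a (0.0711) under quantile normalization; Eng without leg control 3 (0.0340), leg control 4 (0.0252) or leg mdx 2 (0.00735), in a range from -0.217; Tbx15 without leg control 4 (0.142), leg mdx 5 (0.0449) or both leg control 1 and 4 (0.120), in a range from -0.306; and Ighm without EOM mdx 5 (-0.0765), in a range up to 0.352. List counts stayed within 1.5 times in 1539 cases and moved further in 229. The cause of these changes was not tested.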
